A study of Homo sapiens with 8 samples.

Results

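The genes described here carry out or control sterol metabolism. Of these, 20 encode enzymes that build cholesterol or isoprenoids from acetyl units, GGPS1 among them acting on a branch away from sterol. The other 15 control that synthesis or take up, move, store or export sterol. They were chosen as a list of 35 gene symbols, out of 24462 genes in the deposited count table, and each of the 35 had a row. The list was chosen with earlier results of these data known. They were followed in HepG2, a human hepatocellular carcinoma line with many hepatocyte traits. The groups compared were 4 libraries of mock HepG2 cells and 4 of HepG2 cells that overexpress EDN1, the gene of endothelin-1, a secreted vasoactive peptide that signals through receptors coupled to G proteins. Both groups were grown alike in DMEM with fetal bovine serum, antibiotics and an antifungal, and no treatment was given. Not given in the sources used here are the vector, the promoter that drives EDN1, the time in culture and whether the overexpressing cells are 1 clone or a pool. The labels also do not say whether a group's 4 libraries are separate cultures. The p-values therefore cover the spread between libraries, and that spread may be technical.

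Cholesterol synthesis runs from acetyl-CoA through mevalonate to farnesyl diphosphate, then through squalene to lanosterol, and from lanosterol through a series of demethylations, reductions and isomerisations to cholesterol. Its genes are switched on by the SREBP transcription factors, which SCAP escorts out of the endoplasmic reticulum when sterol there is low and which the INSIG proteins hold back when sterol is high. Excess sterol is esterified by the SOAT enzymes, and oxysterols activate the LXR receptors, which turn on export through ABC transporters and, through MYLIP, the degradation of lipoprotein receptors. Liver cells are a main site of both synthesis and clearance of cholesterol.

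RNA was read near transcript ends with the Lexogen QuantSeq kit, and library totals ran from 8409173 to 14932385 counts. Levels are given as CPM (counts scaled to a common library size) on library sizes scaled by TMM, and fold changes as log2 of EDN1 overexpression over mock. The overexpressed gene, EDN1, stood at 2.26, 1.11, 1.04 and 1.38 CPM in mock 1 to 4 and at 228, 259, 418 and 549 CPM in EDN1 1 to 4, a log2 fold change of 7.92 (SE 0.41, edgeR adjusted p = 1.68e-05). All 11 hepatocyte markers looked at were measured, with summed levels of 7180 to 9340 CPM in mock and 6150 to 9010 CPM in EDN1 overexpression. Markers of other cells were low: the sum of 5 fibroblast markers reached at most 3.84 CPM with LUM at 0, that of 4 endothelial markers at most 0.876 CPM, and that of 5 blood markers 8.98 to 19.1 CPM with CD3E at 0. In bulk RNA, fewer cells of a kind and less RNA per cell cannot be told apart.

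The libraries did not fall only by group. Mock 4, EDN1 3 and EDN1 4, called the second set here, stood apart from mock 1 to 3 and EDN1 1 and 2, the first set. The sets were formed from the counts, and no label names a batch. Differences between the sets are therefore descriptions only, given without SE. Of the 12577 genes tested, 13.4% were lower and 9.83% higher in every library of the second set than in every library of the first. Among the sterol genes, SCAP, NR1H2 and ABCA1 were lower in every second-set library and LBR was higher. The second set holds 1 mock library, so a fold change within it assumes that this library varies as the others do. Results are therefore given within each set as well, without SE. Values within the second set are less certain than those over all libraries, so like values in both sets are a description only.

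Of the 35 genes, 33 passed the filter on low counts: all 20 synthesis genes and 13 of the other 15. The lowest count of any of the 33 in any library was 23, for HSD17B7, so no gene passed through 1 group alone. The 2 that did not pass, INSIG1 and ABCG1, had 4 and 8 counts in all 8 libraries together.

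None of the 33 passed at 0.05, in either direction, in edgeR's quasi-likelihood test (Benjamini-Hochberg adjustment over all genes tested), and the adjusted p of every one was 1.0. Over all 12577 genes tested, 1 gene (0.00795%), EDN1 itself, was called higher and 0 (0%) lower. None of the 33 was called by DESeq2 or limma voom either. At an unadjusted edgeR p under 0.05, 10 of 33 were higher, against 2.03% of all genes tested, and 0 were lower, against 0.827%. By DESeq2 11 were higher, against 2.2% of all genes tested, and by limma voom 8, against 2.01%, with 0 lower in both.

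The synthesis genes had fold changes of 1 sign almost throughout. Of the 20, 19 had a positive log2 fold change, where 50.3% of all genes tested did, and 8 were over 1.5-fold higher, against 2.45% of all genes tested. Their median log2 fold change was 0.48 (1.4-fold), beside 0.00 over all genes tested. The 13 other genes had a median of -0.14, with 4 positive and 9 negative values and 1, STARD4, over 1.5-fold higher. Because the list was chosen with earlier results of these data known, its shares beside those of all genes are descriptions only. Whether the synthesis genes and the others differ was not tested.

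**Figure D1:**
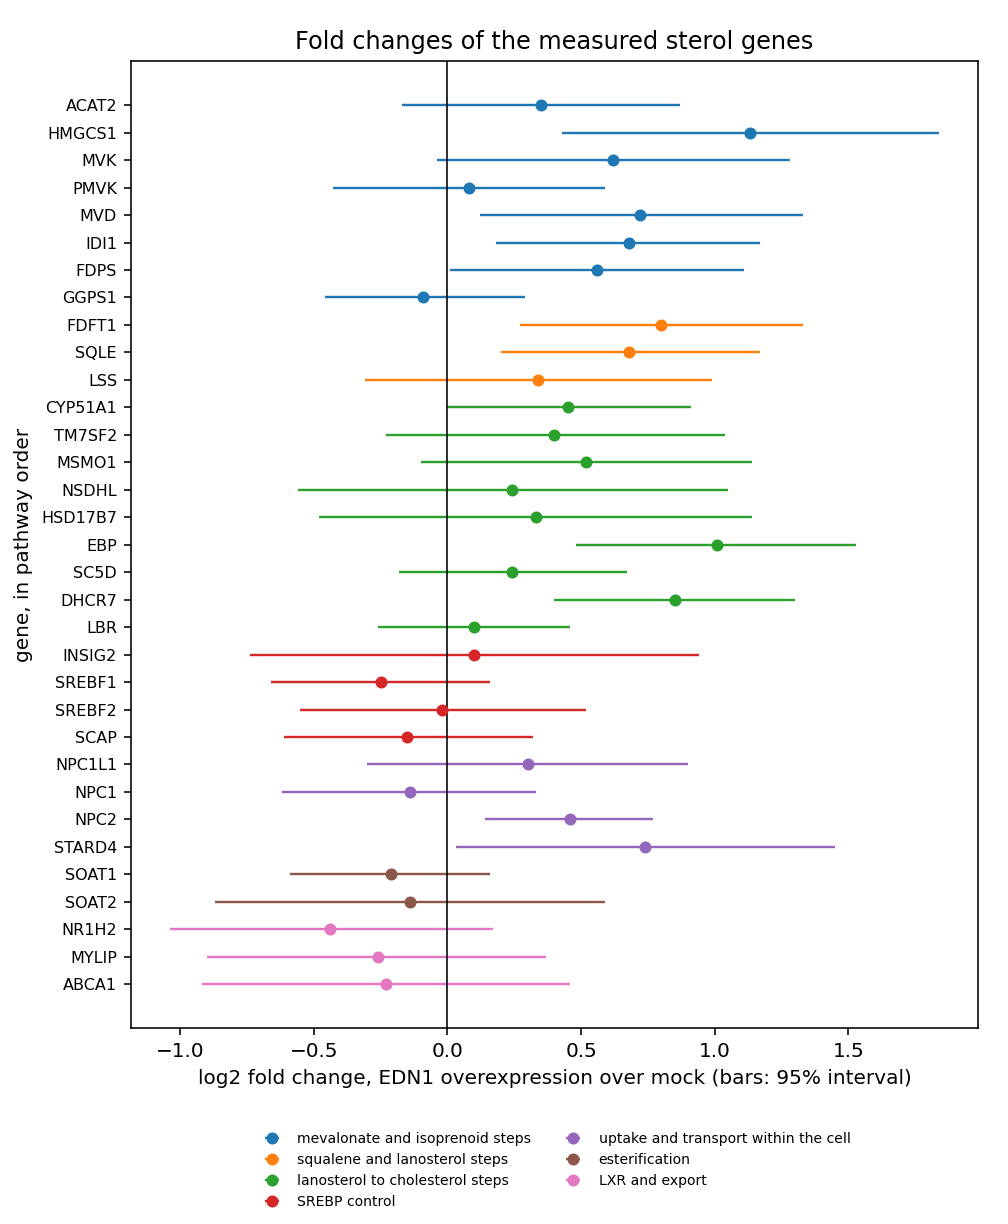
Log2 fold change of EDN1 overexpression over mock (horizontal axis) for each of the 33 measured genes in pathway order (vertical axis); points are edgeR estimates from 4 libraries a group, bars are 95% intervals, and colours mark the pathway step. The synthesis genes run from -0.09 for GGPS1 to 1.13 for HMGCS1, and the LXR and export genes from -0.44 to -0.23.

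The higher values came from EDN1 1 and EDN1 3 more than from the other EDN1 libraries. After centring each gene's log2 CPM on its mean, the median of the 20 synthesis genes was -0.03, -0.33, -0.30 and -0.28 across mock 1 to 4 and 0.68, -0.01, 0.61 and -0.16 across EDN1 1 to 4. EDN1 4 thus lay below mock 1, and the groups overlapped. The highest of the 8 libraries was EDN1 1 or EDN1 3 for 19 of the 20 synthesis genes, against 29.1% of all genes tested. EDN1 1 and EDN1 3 were together the 2 highest for 14 of the 20, against 8.4% of all genes tested. These libraries belong to different sets. The pair was singled out after its values were seen, so this share restates the pattern. EDN1's own level was lowest in EDN1 1 and second highest in EDN1 3, and whether it goes with the pattern was not tested.

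**Figure D2:**
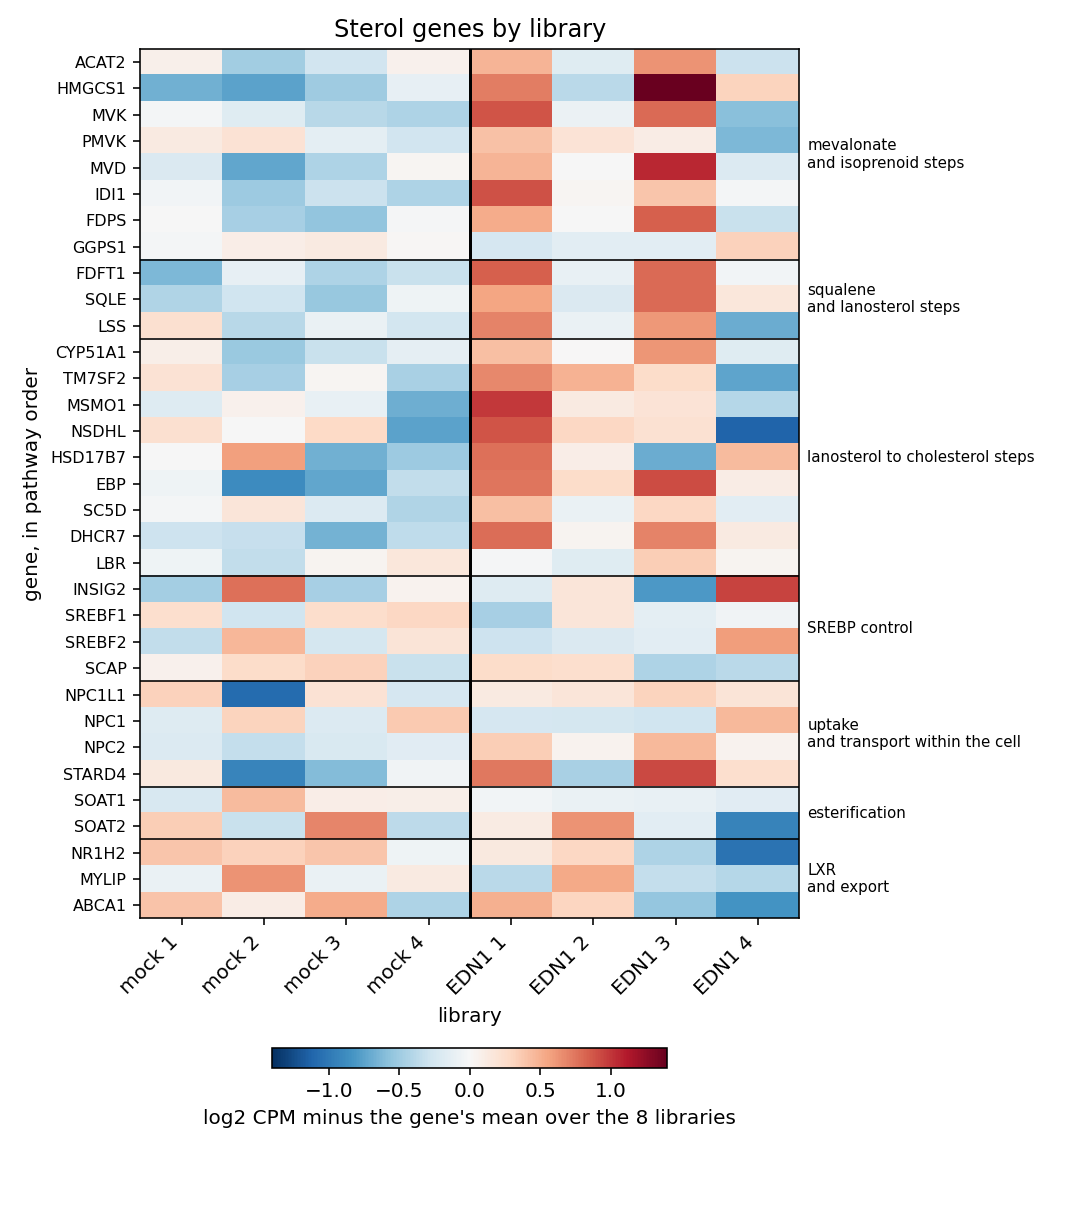
Log2 CPM of each measured sterol gene (rows, in pathway order) in each library (columns), minus the gene's mean over the 8 libraries; red is above and blue below that mean, and horizontal lines divide the pathway steps. The synthesis rows are reddest in EDN1 1 and EDN1 3, where their medians are 0.68 and 0.61, and pale in EDN1 2 and EDN1 4, at -0.01 and -0.16.

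Every EDN1 library lay above every mock library for 5 of the 33 genes, against 1.38% of all genes tested: IDI1, FDFT1, EBP and DHCR7 among the synthesis genes, and NPC2 among the others. No sterol gene had every EDN1 library below every mock library, against 0.668% of all genes tested. Of the 20 synthesis genes, 19 were positive in both sets, where 34.1% of all genes tested were. Their median over the 20 was 0.61 in the first set and 0.49 in the second. The first set holds EDN1 1 and the second EDN1 3, the libraries with the highest synthesis medians. The synthesis genes rose together in these libraries, so they are not 20 independent results. Of the other 13 genes, 3 were positive in both sets and 5 were negative in both, against 32.9% of all genes tested for the negative sign. Leaving out EDN1 1 lowered the synthesis median to 0.32, with 17 of 20 positive and 6 over 1.5-fold, against 2.8% of all genes in that fit. Without EDN1 3 it was 0.42, with 18 positive and 5 over 1.5-fold, against 2.31%. Without EDN1 4 it was 0.66, with 19 positive and 11 over 1.5-fold, against 3.44%. The count at an unadjusted edgeR p under 0.05 ranged from 6 to 13 of 20 over the 8 fits that left out 1 library. The share of all genes moved too: it was 3.28% without EDN1 4, where the count was 13, and 1.84%, 1.11% and 1.14% without mock 2, mock 3 and EDN1 3, where it was 6.

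**Figure D3:**
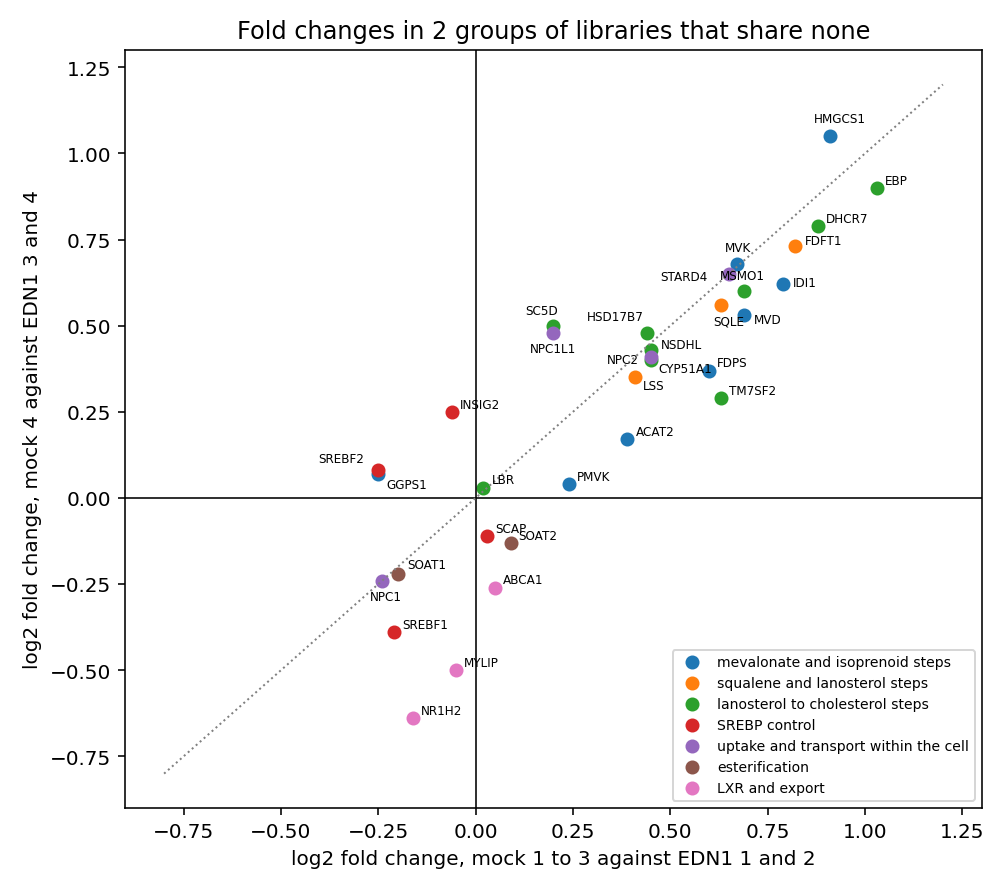
Log2 fold change of each measured gene in the first set (horizontal axis, mock 1 to 3 against EDN1 1 and 2) and in the second (vertical axis, mock 4 against EDN1 3 and 4), which share no library; the dotted line marks equal values and colours mark the step. Of the 20 synthesis genes, 19 lie above 0 on both axes and GGPS1 does not.

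Since the synthesis genes had higher values together, their promoters were read from RefSeq's promoter table (GRCh38.p14), which held 30 of the 35 genes and not ACAT2, FDFT1, SQLE, SOAT2 or ABCG1. The 250 bases before each listed start were searched on both strands, and a gene with several starts counted once if any of them held the motif. A CCAAT box (CCAAT, the letters that the NF-Y factor is known to bind, and NF-Y is known to act beside SREBP at sterol genes) was present in 14 of 17 synthesis genes (82.4%). It was present in 41.8% of the 9288 tested genes with a promoter in the table and in 32.0% of all 35116 promoters. The next stretches show the 200 bases before the start for 4 of the synthesis genes with the largest log2 fold changes, for NSDHL, which has the box and a lower log2 fold change, for LBR, a synthesis gene near 0 without the box, and for SREBF2, the gene of a main activator of synthesis. Capitals mark CCAAT on either strand (ATTGG when read on the other) and, in SREBF2 alone, the sterol regulatory element TCACNCCAC.
EBP: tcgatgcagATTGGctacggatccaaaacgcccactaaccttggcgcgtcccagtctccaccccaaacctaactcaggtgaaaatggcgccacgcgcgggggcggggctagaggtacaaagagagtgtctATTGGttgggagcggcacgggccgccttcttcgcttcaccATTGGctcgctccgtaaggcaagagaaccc
DHCR7: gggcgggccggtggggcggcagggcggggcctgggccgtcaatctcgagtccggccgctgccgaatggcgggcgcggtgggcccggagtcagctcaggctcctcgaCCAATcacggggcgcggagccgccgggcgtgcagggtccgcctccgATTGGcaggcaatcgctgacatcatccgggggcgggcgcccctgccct
HMGCS1: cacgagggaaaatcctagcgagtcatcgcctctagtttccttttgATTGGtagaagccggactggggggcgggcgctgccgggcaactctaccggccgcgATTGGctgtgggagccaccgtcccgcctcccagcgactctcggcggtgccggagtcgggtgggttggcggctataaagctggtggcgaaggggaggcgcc
MVD: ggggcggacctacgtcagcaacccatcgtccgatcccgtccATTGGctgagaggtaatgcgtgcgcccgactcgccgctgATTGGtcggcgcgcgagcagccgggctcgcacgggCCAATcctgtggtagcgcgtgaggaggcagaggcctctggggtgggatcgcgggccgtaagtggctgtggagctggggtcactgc
NSDHL: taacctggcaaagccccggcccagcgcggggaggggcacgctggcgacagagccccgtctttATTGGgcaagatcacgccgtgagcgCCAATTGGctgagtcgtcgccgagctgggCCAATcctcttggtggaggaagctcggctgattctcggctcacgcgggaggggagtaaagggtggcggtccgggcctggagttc
LBR: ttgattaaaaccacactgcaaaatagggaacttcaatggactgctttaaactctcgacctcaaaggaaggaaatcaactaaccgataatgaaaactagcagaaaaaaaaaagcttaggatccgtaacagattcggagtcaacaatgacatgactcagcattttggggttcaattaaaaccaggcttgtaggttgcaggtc
SREBF2: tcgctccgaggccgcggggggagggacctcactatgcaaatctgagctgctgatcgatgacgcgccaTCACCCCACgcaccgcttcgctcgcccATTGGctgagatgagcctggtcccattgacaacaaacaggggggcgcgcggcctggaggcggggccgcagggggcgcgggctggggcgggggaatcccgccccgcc

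The EBP stretch (chrX:48521608-48521807, plus strand) holds 3 CCAAT boxes, whose first bases lie 191, 70 and 30 bases before the start. In DHCR7 (chr11:71448394-71448593, minus strand) there are 2, at 94 and 48 bases. HMGCS1 (chr5:43313413-43313612, minus strand) likewise has 2, at 155 and 100 bases, and for DHCR7 and HMGCS1 the stretch is that of the listed start with more boxes, out of 2 starts. MVD (chr16:88663092-88663291, minus strand) carries 3, at 159, 120 and 85 bases. NSDHL (chrX:152830863-152831062, plus strand) carries 4, at 138, 113, 110 and 84 bases, of which the pair at 113 and 110 overlaps on opposite strands. The LBR stretch (chr1:225428822-225429021, minus strand) has none. SREBF2 (chr22:41832905-41833104, plus strand) holds the sterol regulatory element 133 bases and a CCAAT box 106 bases before its start.

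The 14 synthesis genes with the box had log2 fold changes of -0.09 to 1.13, with a median of 0.54. Those of the 3 without it (PMVK, CYP51A1 and LBR) were 0.08 to 0.45, with a median of 0.10, and lay inside that range. GGPS1, the lowest of the synthesis genes, has the box, as do SC5D and NSDHL, both at 0.24. Among the other genes, the 6 measured with the box had a median of 0.14 and the 6 without it -0.19. Over all genes tested, the medians with and without the box were 0.01 and 0.00. These are counts of letters and descriptions of fold changes, with no test, and a match is not a bound site. The strict letters TCACNCCAC were found in 1 of the 30 genes, SREBF2, and in 1.09% of all genes in the table (0.883% of promoters). The E-box CACGTG, which SREBP can also bind, was in 4 of 30 (SC5D, INSIG1, SCAP and ABCA1) and in 7.73% of genes (6.34% of promoters). The Sp1 box GGGCGG was in 27 of 30 and in 46.2% of genes (42.6% of promoters). These shares of genes are over the whole promoter table, tested or not. For the CCAAT box that share was 37.0%, beside 41.8% of tested genes, and the share of tested genes is not given for the other motifs. The direct repeat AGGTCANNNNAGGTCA, a form of LXR element, was in none of the 30 and in 0.0183% of genes (0.0142% of promoters).

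The mevalonate and isoprenoid steps, 8 genes, showed a median log2 fold change of 0.59. Of the 8, 7 were positive, against 50.3% of all genes tested, and 4 were over 1.5-fold higher, against 2.45%. HMGCS1 encodes the synthase that makes HMG-CoA, the substrate of the rate-limiting reductase. It stood at 57.0, 54.2, 64.6 and 84.0 CPM in mock 1 to 4 and 150.0, 70.3, 237 and 113 CPM in EDN1 1 to 4. EDN1 3 was the highest library, EDN1 2 lay below mock 4, and the other EDN1 libraries lay above all of mock. The means were 65.0 ± 13.4 CPM for mock and 143 ± 70.8 CPM for EDN1 overexpression (SD, n = 4), and the log2 fold change was 1.13 (SE 0.32), with a 95% interval of 0.43 to 1.84. Within the sets it was 0.91 in the first set and 1.05 in the second, and leaving out 1 library moved it from 0.77 without EDN1 3 to 1.36 without EDN1 2.

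IDI1 encodes the isomerase that interconverts the pathway's basic isoprenoid units. Its level was 23.7, 17.1, 19.7 and 18.0 CPM in mock 1 to 4 and 45.1, 24.7, 31.8 and 23.8 CPM in EDN1 1 to 4. All 4 EDN1 libraries were above the mock libraries, but EDN1 4 barely passed mock 1, and EDN1 1 was the highest. The log2 fold change was 0.68 (SE 0.22), and 0.79 in the first set and 0.62 in the second. MVD, the decarboxylase that closes the mevalonate steps, stood at 40.2, 27.9, 34.1 and 46.9 CPM in mock 1 to 4 and 64.3, 45.9, 95.8 and 40.4 CPM in EDN1 1 to 4. EDN1 3 was the highest library and EDN1 2 and EDN1 4 overlapped mock, for a log2 fold change of 0.72 (SE 0.27). Leaving out 1 library moved it from 0.43 without EDN1 3 to 0.88 without EDN1 4. FDPS makes farnesyl diphosphate, from which sterols, dolichol and prenyl groups branch. Its levels were 69.7, 50.9, 47.8 and 69.5 CPM in mock 1 to 4 and 100.3, 69.5, 125 and 56.2 CPM in EDN1 1 to 4. The log2 fold change was 0.56 (SE 0.25), with EDN1 2 and EDN1 4 within the range of mock.

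GGPS1, whose product leads from farnesyl diphosphate to protein prenylation and away from sterol, had the lowest value of the synthesis list. It stood at 15.7, 17.1, 17.5 and 16.2 CPM in mock 1 to 4 and 13.7, 14.5, 14.5 and 20.0 CPM in EDN1 1 to 4. The libraries EDN1 1 to 3 were below all of mock and EDN1 4 was above it, and the log2 fold change was -0.09 (SE 0.17), or -0.25 in the first set and 0.07 in the second. MVK, the first kinase of the pathway, ranged over 24.7 to 32.5 CPM in mock and 22.1 to 61.2 CPM in EDN1 overexpression, and its log2 fold change was 0.62 (SE 0.30). Its highest library was EDN1 1 and its lowest EDN1 4, so the mock range lay inside that of EDN1 overexpression. PMVK, the next kinase, ranged over 11.3 to 15.7 CPM in mock and 8.78 to 18.1 CPM in EDN1 overexpression, at 0.08 (SE 0.23), and its sign turned without EDN1 1, to -0.06. ACAT2, the cytosolic thiolase that opens the pathway, ranged over 338 to 497 CPM in mock and 382 to 730.0 CPM in EDN1 overexpression, at 0.35 (SE 0.23). EDN1 1 and EDN1 3 were above all of mock in both MVK and ACAT2.

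The squalene and lanosterol steps, 3 genes, had a median log2 fold change of 0.68, all positive. FDFT1, squalene synthase, makes the first product committed to sterol. It stood at 49.2, 70.5, 56.6 and 61.6 CPM in mock 1 to 4 and 136, 70.9, 132 and 74.1 CPM in EDN1 1 to 4. EDN1 1 and EDN1 3 were nearly level and far above the rest, while EDN1 2 barely passed the highest mock library, mock 2. The means were 59.5 ± 8.97 CPM for mock and 103 ± 35.6 CPM for EDN1 overexpression (SD, n = 4), and the log2 fold change was 0.80 (SE 0.24), with a 95% interval of 0.27 to 1.33. Within the sets it was 0.82 in the first set and 0.73 in the second, and leaving out 1 library moved it from 0.64 without EDN1 1 to 0.94 without EDN1 2.

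SQLE, squalene epoxidase, a second rate-limiting step, stood at 27.1, 29.9, 25.1 and 34.8 CPM in mock 1 to 4 and 53.0, 31.5, 62.9 and 40.4 CPM in EDN1 1 to 4. Here EDN1 2 lay below mock 4, and the other EDN1 libraries lay above all of mock. The log2 fold change was 0.68 (SE 0.22), and 0.63 in the first set and 0.56 in the second. LSS closes the rings to give lanosterol, and its level was 16.6, 10.9, 13.3 and 11.9 CPM in mock 1 to 4 and 22.9, 13.3, 21.7 and 8.78 CPM in EDN1 1 to 4. EDN1 1 and EDN1 3 were again the highest, but EDN1 4 was the lowest of the 8, and the log2 fold change was 0.34 (SE 0.29), with an interval of -0.31 to 0.99.

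From lanosterol to cholesterol, 9 genes were measured, with a median log2 fold change of 0.40. All 9 were positive, against 50.3% of all genes tested, and 2 were over 1.5-fold higher, against 2.45%. EBP, the isomerase that shifts the double bond of the sterol ring, had the smallest unadjusted edgeR p of the sterol genes. It stood at 39.2, 22.1, 24.7 and 32.1 CPM in mock 1 to 4 and 68.3, 48.8, 76.6 and 43.8 CPM in EDN1 1 to 4. All 4 EDN1 libraries lay above all mock libraries, the nearest pair being EDN1 4 and mock 1. The means were 29.5 ± 7.70 CPM for mock and 59.4 ± 15.6 CPM for EDN1 overexpression (SD, n = 4). The log2 fold change was 1.01 (SE 0.24), with a 95% interval of 0.48 to 1.53, and leaving out 1 library moved it from 0.86 without EDN1 3 to 1.17 without mock 1.

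DHCR7 encodes the reductase of a last step to cholesterol. Its levels were 20.4, 20.0, 15.9 and 19.6 CPM in mock 1 to 4 and 43.3, 25.8, 40.5 and 27.4 CPM in EDN1 1 to 4. The mock libraries lay close together and the EDN1 libraries above them, with EDN1 1 and EDN1 3 apart from EDN1 2 and EDN1 4. The means were 19.0 ± 2.09 CPM for mock and 34.2 ± 8.95 CPM for EDN1 overexpression (SD, n = 4), and the log2 fold change was 0.85 (SE 0.20), with a 95% interval of 0.40 to 1.30. It was 0.88 in the first set and 0.79 in the second, and leaving out 1 library moved it from 0.72 without EDN1 1 to 0.97 without EDN1 2.

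CYP51A1, the lanosterol demethylase, stood at 54.2, 35.8, 41.3 and 46.9 CPM in mock 1 to 4 and 68.4, 51.3, 78.6 and 45.5 CPM in EDN1 1 to 4. EDN1 1 and EDN1 3 were above all of mock, EDN1 2 and EDN1 4 were below mock 1, and the log2 fold change was 0.45 (SE 0.20). MSMO1, the methylsterol oxidase, stood at 38.2, 45.2, 40.3 and 26.8 CPM in mock 1 to 4 and 85.9, 47.1, 49.2 and 32.7 CPM in EDN1 1 to 4. The log2 fold change was 0.52 (SE 0.28), with 0.69 in the first set and 0.60 in the second. It was 0.19 without EDN1 1 and 0.66 with the set as a term, and the second set minus the first was -0.67. LBR, a protein of the inner nuclear membrane that is also a sterol reductase, had the lowest value of the step, at 75.5, 62.0, 81.1 and 88.3 CPM in mock 1 to 4 and 77.8, 70.3, 100.0 and 81.2 CPM in EDN1 1 to 4. Its groups overlapped and its log2 fold change was 0.10 (SE 0.16), or 0.02 in the first set and 0.03 in the second. TM7SF2, a reductase of the same step, ranged over 16.8 to 26.7 CPM in mock and 13.9 to 36.9 CPM in EDN1 overexpression, at 0.40 (SE 0.29), and its lowest library was EDN1 4.

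NSDHL and HSD17B7 act together in removing methyl groups of the ring, and SC5D is a desaturase. HSD17B7 ranged over 2.67 to 6.30 CPM in mock and 2.63 to 7.24 CPM in EDN1 overexpression, with a log2 fold change of 0.33 (SE 0.37), and SC5D over 18.0 to 26.9 CPM in mock and 21.7 to 32.1 CPM in EDN1 overexpression, at 0.24 (SE 0.19). The groups overlapped in both. The log2 fold change of NSDHL was 0.24 (SE 0.36). NSDHL was highest in EDN1 1, at 63.2 CPM, and lowest in EDN1 4, at 15.7 CPM, and its value was 0.45 in the first set and 0.43 in the second. It was -0.06 without EDN1 1 and 0.45 with the set as a term, and the second set minus the first was -0.92.

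**Figure D4:**
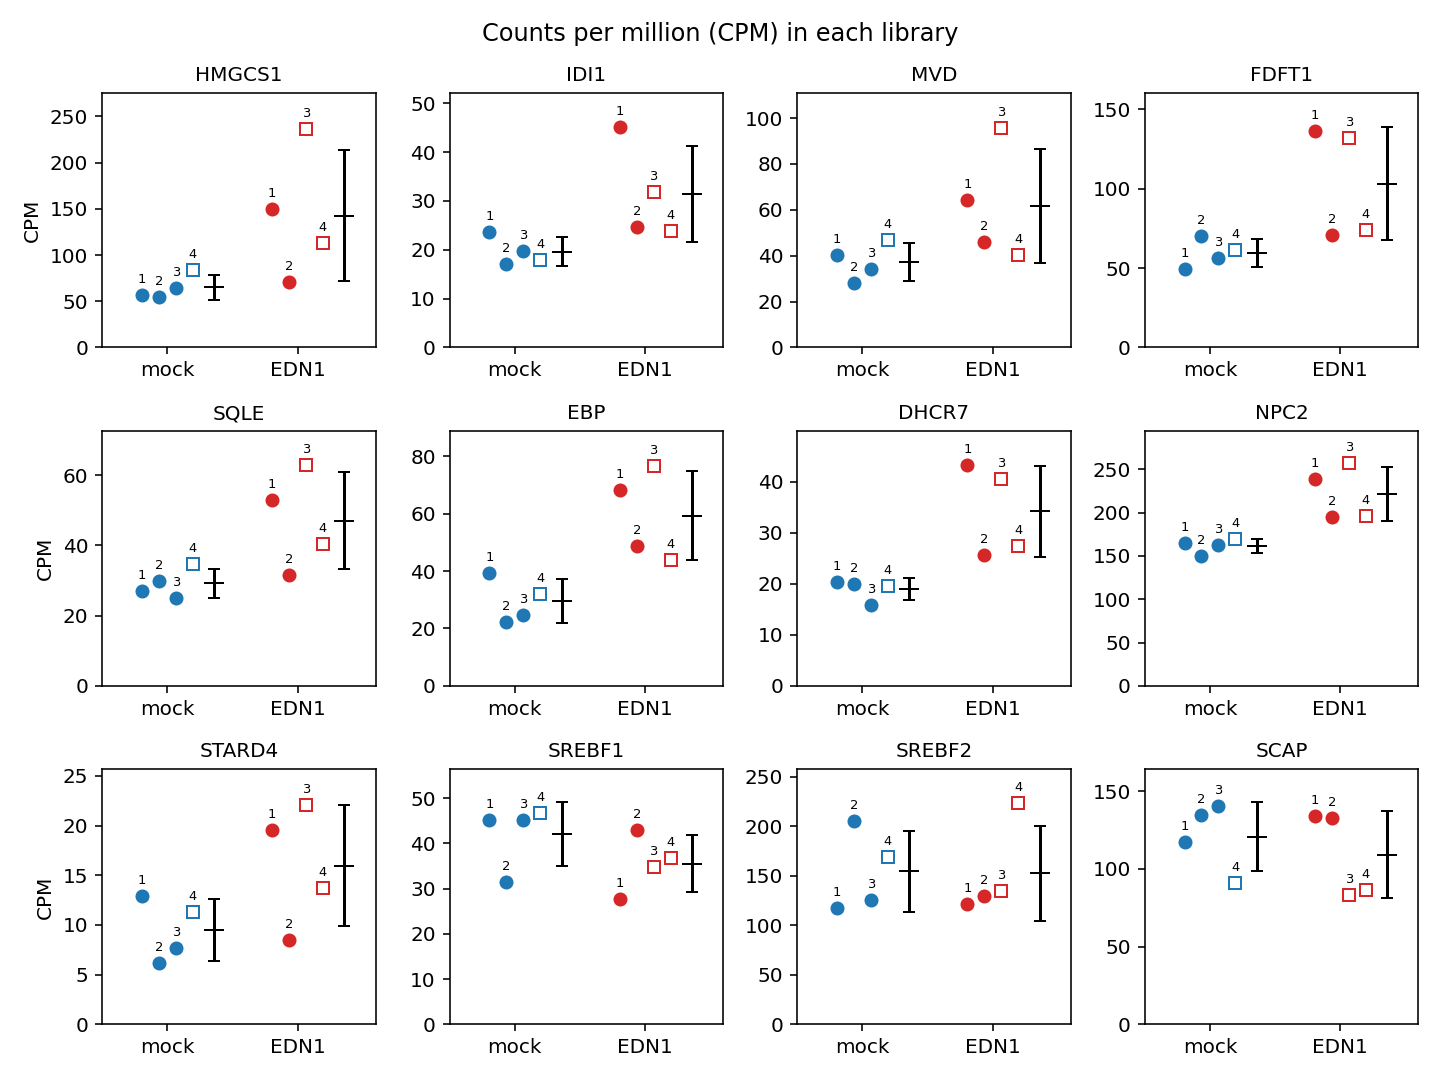
CPM (vertical axis, from 0) of 12 genes in each library, mock in blue and EDN1 overexpression in red, numbered as the libraries are; filled circles are the first set, open squares the second, and the black bars give the mean and SD of 4 libraries. IDI1, FDFT1, EBP, DHCR7 and NPC2 have no overlap between groups, while SREBF1, SREBF2 and SCAP overlap.

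The genes that control SREBP had no common sign. Of the 4 measured, 1 had a positive and 3 a negative log2 fold change, with a median of -0.08. SREBF2, whose protein mainly drives cholesterol genes, stood at 117, 205, 126 and 169 CPM in mock 1 to 4 and 122, 129.9, 135 and 224 CPM in EDN1 1 to 4. Mock 2 and EDN1 4 were the high libraries, in different groups, and the log2 fold change was -0.02 (SE 0.24), with a 95% interval of -0.55 to 0.52. SREBF1, whose protein leans to fatty acid genes, stood at 45.1, 31.5, 45.2 and 46.6 CPM in mock 1 to 4 and 27.7, 42.9, 34.7 and 36.8 CPM in EDN1 1 to 4. EDN1 1 was the lowest library and mock 4 the highest, and the groups overlapped. The log2 fold change was -0.25 (SE 0.18), or -0.21 in the first set and -0.39 in the second.

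SCAP, the escort protein gene, stood at 117, 135, 141 and 90.7 CPM in mock 1 to 4 and 134, 133, 83.2 and 86.4 CPM in EDN1 1 to 4. It was low in mock 4, EDN1 3 and EDN1 4, which is the second set, and the log2 fold change between groups was -0.15 (SE 0.21). With the group as a term, the second set minus the first was -0.60 on the log2 scale, a description of sets formed from these counts. INSIG2, which retains SCAP, stood at 15.0, 35.6, 15.1 and 21.6 CPM in mock 1 to 4 and 18.4, 23.4, 11.9 and 40.1 CPM in EDN1 1 to 4. Mock 2 and EDN1 4 were high, as for SREBF2, and the log2 fold change of 0.10 (SE 0.38) had an interval of -0.74 to 0.94.

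INSIG1, the INSIG gene that SREBP itself is known to induce, was almost without reads: the counts of mock 1 to 4 were 0, 0, 0 and 3, and those of EDN1 1 to 4 were 1, 0, 0 and 0. The 3 counts taken as the limit of detection correspond to 0.201 to 0.357 CPM in these libraries, so INSIG1 was at or under that limit in every library and no fold change is given. Reads in this assay come from near the transcript end, and whether the gene model used in counting covers the end of INSIG1 is not known, so these counts do not show that INSIG1 was not expressed. The limit covers counting error only, since reads are not independent molecules.

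The uptake and transport genes, 4 in all, had a median log2 fold change of 0.38. NPC2, the soluble protein that takes cholesterol out of lysosomes with NPC1, stood at 165, 150.0, 162 and 169 CPM in mock 1 to 4 and 239, 196, 257 and 196 CPM in EDN1 1 to 4. The mock libraries spanned 150.0 to 169 CPM and every EDN1 library was above them. The means were 162 ± 8.21 CPM for mock and 222 ± 31.3 CPM for EDN1 overexpression (SD, n = 4), and the log2 fold change was 0.46 (SE 0.14), with a 95% interval of 0.14 to 0.77. It was 0.45 in the first set and 0.41 in the second, and leaving out 1 library moved it from 0.38 without EDN1 3 to 0.51 without EDN1 2.

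NPC1, its membrane partner, stood at 53.1, 74.5, 52.5 and 77.8 CPM in mock 1 to 4 and 50.9, 50.6, 49.7 and 82.6 CPM in EDN1 1 to 4. EDN1 1 to 3 were below all of mock and EDN1 4 was the highest of the 8, so the log2 fold change was -0.14 (SE 0.21). STARD4, a cytosolic sterol carrier and a known SREBP target, stood at 12.9, 6.18, 7.65 and 11.3 CPM in mock 1 to 4 and 19.5, 8.51, 22.1 and 13.7 CPM in EDN1 1 to 4. It followed the pattern of the enzymes, highest in EDN1 1 and EDN1 3, and had a fold change on the log2 scale of 0.74 (SE 0.32), or 0.65 in the first set and 0.65 in the second. NPC1L1, a sterol uptake protein of intestine and bile canaliculi, stood at 11.1, 4.20, 10.2 and 7.53 CPM in mock 1 to 4 and 9.68, 9.98, 11.1 and 10.1 CPM in EDN1 1 to 4. Only mock 2 was below 7 CPM, and the log2 fold change of 0.30 (SE 0.27) became 0.09 without it.

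Both esterification genes had negative log2 fold changes within the spread of the libraries. SOAT1 stood at 17.8, 28.3, 22.1 and 21.9 CPM in mock 1 to 4 and 20.2, 19.4, 19.4 and 18.6 CPM in EDN1 1 to 4, for a log2 fold change of -0.21 (SE 0.17). The EDN1 libraries lay within 2 CPM of each other and inside the mock range. SOAT2, the hepatocyte and intestinal form, stood at 57.4, 36.6, 73.0 and 35.1 CPM in mock 1 to 4 and 48.97, 70.0, 41.0 and 23.7 CPM in EDN1 1 to 4. Its log2 fold change was -0.14 (SE 0.33), with an interval of -0.87 to 0.59 and the groups overlapping.

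The LXR and export genes had a median log2 fold change of -0.26 over the 3 measured. NR1H2, which encodes the LXR receptor found in most tissues, stood at 14.8, 14.2, 14.8 and 10.8 CPM in mock 1 to 4 and 12.4, 13.8, 8.42 and 5.54 CPM in EDN1 1 to 4. Its lowest libraries were EDN1 4, EDN1 3 and mock 4, the second set, and the log2 fold change was -0.44 (SE 0.27), or -0.16 in the first set and -0.64 in the second. ABCA1, the transporter that loads cholesterol onto apolipoprotein, stood at 38.2, 31.0, 41.6 and 21.4 CPM in mock 1 to 4 and 40.8, 35.6, 19.8 and 16.2 CPM in EDN1 1 to 4. It had the same low libraries: the log2 fold change between groups was -0.23 (SE 0.31), while the second set minus the first was -0.95 with the group as a term.

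MYLIP, the ubiquitin ligase for lipoprotein receptors, stood at 4.84, 8.03, 4.87 and 5.67 CPM in mock 1 to 4 and 3.99, 7.49, 4.12 and 3.93 CPM in EDN1 1 to 4, with a log2 fold change of -0.26 (SE 0.29). Mock 2 and EDN1 2 were its high libraries. ABCG1, a second export transporter, had counts of 0, 1, 1 and 6 across mock 1 to 4 and 0 in each EDN1 library. Only mock 4 was above the limit of 3 counts, so no fold change is given.

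The median SE was alike between the groups of genes: 0.24 for the synthesis genes, 0.27 for the other 13 and 0.23 for all genes tested. Changes of 2-fold up and down both lay outside the 95% interval for 7 of the 20 synthesis genes, 11 of the other 13 (84.6%) and 79.4% of all genes tested. The remaining synthesis intervals passed 2-fold at the upper end only, so their lower count restates their positive estimates and not a wider spread. Some counts may include reads of other genes, since the use of strand in counting is not given in the sources used here. In the GENCODE 29 annotation, 12 of the 35 genes overlap exons of a gene on the other strand, and for ACAT2, MVK, GGPS1 and NPC1 that gene is protein-coding. FDPS, CYP51A1 and HSD17B7 have named pseudogene copies (8, 3 and 2), which can take or give reads, so their levels are uncertain.

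Other genes of sterol and lipid metabolism, listed by their known roles, had 0 members past the adjusted edgeR threshold. For the counts that follow, 50.3% of all genes tested had a positive log2 fold change. Of 14 measured genes that cleave SREBP or degrade sterol-regulated proteins in the endoplasmic reticulum, 8 were higher and 6 lower, with a median log2 fold change of 0.05. The smallest unadjusted p was that of C12orf49, a factor of SREBP cleavage, with a log2 fold change of 0.35 (SE 0.17). It stood at 42.5, 34.4, 53.0 and 36.8 CPM in EDN1 1 to 4, against 36.0 CPM in the highest mock library, so EDN1 2 overlapped mock. EDN1 1 and EDN1 3 were its 2 highest libraries, as in 8.4% of all genes tested. Genes that use isoprenoids for prenyl groups, dolichol and ubiquinone split 11 to 9, with a median of 0.03 over 20. PGGT1B, a prenyl transferase subunit, had the smallest unadjusted p there, at -0.32 (SE 0.16), with every EDN1 library below every mock library. Over all genes tested, 0.668% had that pattern.

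Sterol trafficking, ester hydrolysis and lipoprotein receptor genes split 9 higher to 12 lower among the 21 measured of 28, with a median of -0.03. GRAMD1A, a sterol transporter at membrane contacts, had the smallest unadjusted p of these and a log2 fold change of -0.39 (SE 0.22). Of 9 measured oxysterol and bile acid genes out of 16, 2 were higher and 7 lower, with a median of -0.12, and BAAT, which conjugates bile acids, had the smallest unadjusted p and a log2 fold change of -0.66 (SE 0.43). CH25H, CYP7A1 and CYP46A1 of that list had 0 counts in all 8 libraries.

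Of these 5 lists, fatty acid and phospholipid genes known as SREBP or LXR targets had the median nearest to that of the synthesis genes. It was 0.28 on the log2 scale. Of 13 measured, 12 were higher, against 50.3% of all genes tested. At an unadjusted edgeR p under 0.05, 3 were higher, against 2.03% of all genes tested. FADS1, a fatty acid desaturase, had the smallest unadjusted p. It stood at 105, 97.8, 99.1 and 105 CPM in mock 1 to 4 and 149, 118, 154 and 128 CPM in EDN1 1 to 4. Every EDN1 library was above every mock library, as in 1.38% of all genes tested, with EDN1 1 and EDN1 3 the highest. The log2 fold change was 0.43 (SE 0.13), or 0.41 in the first set and 0.42 in the second. Whether these lists differ from the synthesis genes was not tested. Among the hepatocyte markers, 3 were higher and 8 lower, and AFP, a fetal liver protein gene, stood at -0.79 (SE 0.35) on the log2 fold change scale. It was lowest in EDN1 1, at 302 CPM, and highest in mock 4, at 1575 CPM, and its part in the sterol results was not tested.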

How the data were processed

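RNA from 4 mock and 4 EDN1-overexpressing HepG2 libraries was prepared with a Lexogen QuantSeq kit and sequenced on an Illumina instrument, per the labels' protocols. The authors deposited raw read counts per gene, 1 column per library. Per the submitters' processing notes, Bowtie2 and edgeR were used with the build hg19. Not given in the sources used here are versions, the counter and its settings, including strand. Groups and replicate numbers come from the sample titles.

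Rows of 1 symbol were summed (25737 rows, 288 repeated symbols, 24462 genes). Genes were filtered with filterByExpr by group (minimum count 10), leaving 12577, scaled by TMM and tested with edgeR 4.0.16's quasi-likelihood test in R 4.3.3, with the group as the only term and Benjamini-Hochberg adjustment over all genes tested. SE is the log2 fold change over the square root of F, and intervals are 95% intervals. CPM values use TMM-scaled library sizes, and centred log2 values a prior count of 2. The fit was also run on simulated counts, drawn separately for each gene and without library sets. That run therefore does not cover library sets or genes that move together. The 19 alternatives are other scalings and filters, DESeq2 1.42.0, limma 3.58.1 (voom), a replicate block, library sets, unsummed rows and each library left out.

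Members, lists and library sets were chosen with earlier results of these data known, so no list was tested. Values by library are given for INSIG1, SREBF1, SREBF2 and SCAP, for up to 4 genes of smallest unadjusted p in each step, and for the gene of lowest log2 fold change in each step. Other genes given with values were added after their values were seen, or head their list by unadjusted p. Promoter sequences and motifs are from RefSeq (GRCh38.p14). Counts came from hg19, so the GENCODE 29 annotation was used for names and overlaps only.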

Additional observations from a re-analysis of the deposited data

Results flagged for a closer look

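In 6 of 66 sets of 4 libraries (each of the 33 genes in each group), 1 library's gap to the nearest of the others took a larger part of the range than the 95% critical value of Dixon's test allows. Chance flags about 3.3 of 66, and the cause of none was tested.

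EDN1 4 was apart from the other EDN1 libraries for GGPS1 (gap over range 0.841), SREBF2 (0.832) and NPC1 (0.953), and was the highest of the 4 each time. It stood at 20.0 CPM for GGPS1, 224 CPM for SREBF2 and 82.6 CPM for NPC1. Mock 2 was low for SREBF1 (0.915), at 31.5 CPM. Mock 4 was low for NR1H2 (0.861), at 10.8 CPM, and belongs to the second set, whose other libraries were lower still. EDN1 2 was high for MYLIP (0.926), at 7.49 CPM.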

How the results depend on the processing

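No sterol gene passed the adjusted threshold in any of the 19 alternatives. The count over all genes was 1 higher and 0 lower, except that DESeq2 called 2 higher and 1 lower. Of 627 values of a sterol gene under an alternative, 607 kept their sign and 20 reversed, in 9 of the 33 genes. SOAT2 turned to 0.02 with the library set as a term. In the first set alone, INSIG2 turned to -0.06, SCAP to 0.03, SOAT2 to 0.09 and ABCA1 to 0.05. In the second set alone, GGPS1 turned to 0.07 and SREBF2 to 0.08. When 1 library was left out, the log2 fold change ranged from -0.28 to 0.44 for INSIG2, from -0.26 to 0.15 for SREBF2, from -0.41 to 0.09 for SOAT2, from -0.06 to 0.25 for PMVK, from -0.06 to 0.51 for NSDHL and from -0.01 to 0.18 for LBR. The cause of these reversals was not tested. The median of the 20 synthesis genes ran from 0.32 to 0.66 when 1 library was left out, and from 0.44 to 0.61 over the other alternatives.

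Whether replicate numbers pair the libraries was not settled. Deviations of same-numbered libraries correlated at 0.48, 0.15, -0.15 and 0.53, and not every library correlated best with its own number. These deviations also carry the difference between the library sets, so the correlations cannot decide for or against pairing. With a replicate block, the synthesis median was 0.44 and 0 sterol genes passed.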

Other observations

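SCD and PNPLA3, both lipid genes that SREBP or LXR are known to induce, were named after their values were seen. SCD, a fatty acid desaturase gene, stood at 695, 697, 679 and 921 CPM in mock 1 to 4 and 1095, 717, 1508 and 1022 CPM in EDN1 1 to 4, with a log2 fold change of 0.54 (SE 0.22). PNPLA3, a lipid droplet protein gene, stood at 7.49, 3.46, 7.65 and 8.91 CPM in mock 1 to 4 and 13.5, 8.51, 22.8 and 10.2 CPM in EDN1 1 to 4, with 0.99 (SE 0.36). Neither passed edgeR's adjusted threshold. In both, EDN1 3 and EDN1 1 were the 2 highest libraries, as in 8.4% of all genes tested, and EDN1 2 overlapped mock. LPIN1, a phosphatidate phosphatase gene of the same list, was its 1 member with a negative value, at -0.35 (SE 0.22).

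INSIG1 is known as an SREBP target in liver cells, and HMGCS1 and SQLE, which are targets too, had 142.6 and 47.0 CPM on average in EDN1 overexpression. INSIG1 had 4 counts over all 8 libraries, a value that depends on whether the gene model used in counting reaches the transcript end, which is not known here.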
